A study of Mus musculus with 2 samples.

Results

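Galectins were followed here in a pair of sorted T cell populations, through the transcripts of Lgals1, Lgals3, Lgals4, Lgals8 and Lgals9, together with Lgals3bp, which encodes a secreted partner of galectin-3. These 6 genes were taken by symbol from a table of 41592 genes, and all 6 had a row and a mean level of at least 1 FPKM (fragments per kilobase of gene, scaled to the library's read total). They were chosen because Lgals3 and Lgals1 differ strongly between the populations, so every value below describes that choice and none tests it. CD4+ cells from lymph nodes and spleens of C57BL/6 mice aged 6 to 8 weeks were sorted at a purity typically above 97% into Thy1.1-negative YFP+ cells and Thy1.1-positive YFP+ cells. All mice had the genotype Foxp3 dCNS1-Cre-R26-YFP, in which Cre is driven by Foxp3 regulatory DNA without the CNS1 element and YFP at the Rosa26 locus marks cells that have had Cre activity, and their descendants, whether or not they still express Foxp3. The study set thymus-derived regulatory T (Treg) cells beside precursors of cells that lose Foxp3, but its design text gives the same markers to both, so the populations are named by their staining. What Thy1.1 reports in these mice, and how many mice were used, are not stated by the labels.

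Each population was 1 library, so differences stand without replicate error or p-values. Counted reads totalled 18536339 in Thy1.1-negative cells and 18600581 in Thy1.1-positive cells. Intervals are exact 95% counting intervals from whole reads recovered from the FPKM values, and they cover neither biological variation nor differences between sorts, preparations or PCR duplicates. Calls needed a difference of at least 1 in log2(FPKM + 1), which is 2-fold, among the 12820 genes with a mean of at least 1 FPKM. The constant of 1 understates the change of genes with low levels. Foxp3 stood at 158 FPKM in Thy1.1-negative cells and 237 FPKM in Thy1.1-positive cells, and Cd4 at 471 FPKM in Thy1.1-negative cells and 327 FPKM in Thy1.1-positive cells, so both libraries held transcripts that define the sorted lineage.

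Galectins are lectins that bind β-galactoside sugars, above all N-acetyllactosamine, on glycoproteins and glycolipids. They are made in the cytosol, leave cells without a signal peptide, and cross-link glycoproteins at the cell surface into lattices, while some also act inside the cell. In T cells, galectin-1 is known to bind CD45, CD43 and CD7, to promote the death of activated cells and to take part in suppression by Treg cells, and galectin-9 is known as a ligand of the inhibitory receptor Tim-3. Family members differ in build: galectin-1 is a small protein that pairs with itself, galectin-3 joins a carbohydrate-binding domain to a long flexible tail through which it forms oligomers, and galectins 4, 8 and 9 carry a pair of different binding domains on 1 chain.

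Lgals1 and Lgals3 were higher in the Thy1.1-negative cells, and the other 4 members lay within 2-fold. Of the 6 members 2 were called higher and none lower, while 1.93% of all genes tested were called higher and 1.15% lower by the same rule, 3.08% in either direction. All 6 differences were above 0, and remained so under each of the 4 rescalings tried. With the deposited values, 7070 of the 12820 genes tested also lay above 0. Counts of list genes above 0 or called, given below, are to be read beside these backgrounds. The median log2 difference was 0.52 over the 6 members and 0.03 over all genes tested. Without Lgals1 and Lgals3, the median of the remaining 4 was 0.32. Since the members were picked on this contrast, these counts support nothing beyond the values themselves.

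**Figure D1:**
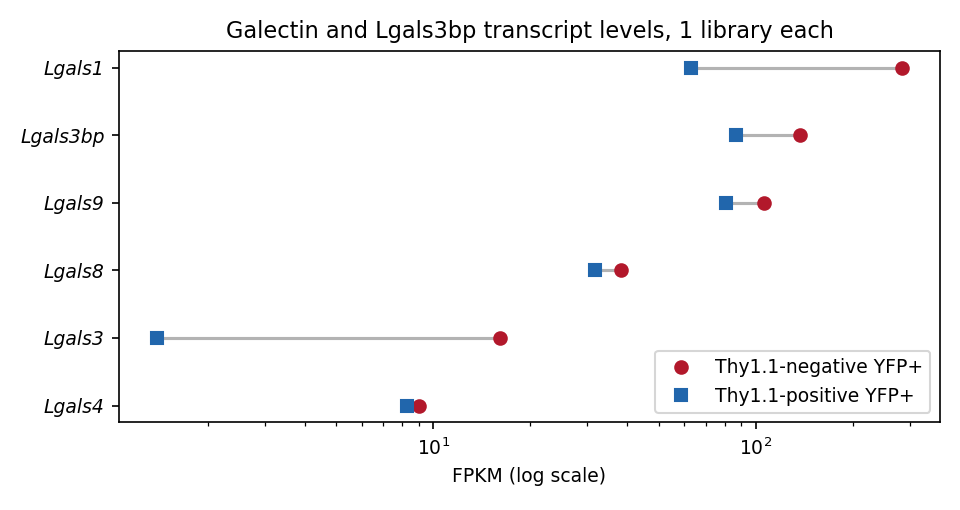
FPKM on a log axis for each of the 6 genes, with a circle for the Thy1.1-negative library and a square for the Thy1.1-positive library, 1 library each. The circle lies right of the square in every row, by the widest distance for Lgals3 (16.1 against 1.39 FPKM) and Lgals1 (285 against 63.2 FPKM).

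Lgals1 encodes galectin-1, the prototype of the family. It stood at 285 FPKM in Thy1.1-negative cells and 63.2 FPKM in Thy1.1-positive cells. It was the most abundant galectin transcript of the Thy1.1-negative cells, and the ratio was 4.51 (4.17 to 4.89). The log2 difference of 2.16 ranked 23rd of 12820 genes, and in mean level Lgals1 ranked 564th. The read numbers behind this gene are multiples of 845 in Thy1.1-negative cells and of 188 in Thy1.1-positive cells, and a multiple of 4 came nearest to the annotated length, giving 3380 reads in Thy1.1-negative cells and 752 reads in Thy1.1-positive cells. A multiple of 5 would give 4225 reads in Thy1.1-negative cells and 940 reads in Thy1.1-positive cells, with an interval of 4.20 to 4.85. The choice touches the interval and not the ratio or the deposited FPKM. It also sets the Lgals1 level per kilobase of all annotated exons, given below with the multiple of 4. Its annotated pseudogenes drew almost no reads: Lgals1-ps1 had 0 reads in Thy1.1-negative cells and 1 read in Thy1.1-positive cells, and Lgals1-ps2 had 0 in both.

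Lgals3 encodes galectin-3, the chimera-type member, which can oligomerise through its tail. It stood at 16.1 FPKM (267 reads) in Thy1.1-negative cells and 1.39 FPKM (23 reads) in Thy1.1-positive cells. The gene was thus close to the 1 FPKM filter in Thy1.1-positive cells and well above it in Thy1.1-negative cells. The ratio of 11.6 was the widest of the family, and with only 23 reads in the lower library its interval ran from 7.60 to 18.7. The log2 difference of 2.85 ranked 7th of 12820 genes, although in mean level Lgals3 ranked 7483rd. With a constant of 5 in place of 1 the difference was 1.73, and with 0.1 it was 3.45. Because Lgals3 shows the widest ratio, the DNA before its start is shown, 203 bases of mouse chromosome 14 ending where the first annotated exon begins (RefSeq, GRCm38.p6, chr14:47373610-47373812, plus strand, 5′ to 3′). Capitals mark matches on either strand to an NF-kB pattern, GGG and CC with any 5 bases between them.
Lgals3: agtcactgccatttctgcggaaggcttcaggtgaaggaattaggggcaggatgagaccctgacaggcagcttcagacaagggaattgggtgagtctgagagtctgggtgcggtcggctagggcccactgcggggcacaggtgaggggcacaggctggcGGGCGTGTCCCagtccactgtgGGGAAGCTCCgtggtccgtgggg
The 250 bases before the RefSeq start were 66.0% G or C. They held that pattern at 92, 91 and 70 bases before the start, where the first pair overlap, and a GC box, GGGCGG on either strand, at 7 bases before it, which lies past the printed stretch. Of 32851 mouse promoter windows of that length, 45.8% held the NF-kB pattern and 32.7% the GC box. No match was found there for an AP-1 site (TGA and TCA with any 1 base between them), a gamma-activated STAT site (TTC and GAA with any 3 bases between them), an interferon-stimulated response core (GAAA repeated after any 2 bases) or a TATA box (TATAAA). Such matches are letters and not shown binding. No Lgals1 promoter was used here.

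Lgals9 encodes galectin-9, a tandem-repeat member that interferons are known to induce. It stood at 106 FPKM (2426 reads) in Thy1.1-negative cells and 80.9 FPKM (1853 reads) in Thy1.1-positive cells. The gene was abundant in both populations, with a ratio of 1.31 (1.24 to 1.40) that lay well inside 2-fold. The 228 bases before its first annotated exon are shown because they hold the interferon-stimulated response core (RefSeq, GRCm38.p6, chr11:78984947-78985174, minus strand, 5′ to 3′). Capitals mark that match, which begins 55 bases before the RefSeq start and reads GAAA, any 2 bases, GAAA on the opposite strand, and a match to the NF-kB pattern that begins 129 bases before it.
Lgals9: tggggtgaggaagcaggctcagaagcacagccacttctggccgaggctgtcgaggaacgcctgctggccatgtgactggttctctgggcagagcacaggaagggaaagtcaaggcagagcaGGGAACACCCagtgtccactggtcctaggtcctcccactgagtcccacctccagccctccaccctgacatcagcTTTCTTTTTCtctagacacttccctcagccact
The response core was present in 2.98% of the 32851 promoter windows. Among the 5 members with a promoter sequence, Lgals9 was the one with this match.

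Lgals3bp encodes a secreted glycoprotein with a scavenger receptor domain that binds galectin-3 and is known as an interferon-induced gene. It is not itself a galectin. It stood at 137 FPKM (2435 reads) in Thy1.1-negative cells and 86.8 FPKM (1548 reads) in Thy1.1-positive cells. This was the third highest ratio of the 6, at 1.58 (1.48 to 1.68), and the log2 difference of 0.65 stayed within 2-fold. None of the 6 motifs searched was found in the 250 bases before its start.

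The interferon response list, given because Lgals9 and Lgals3bp are known interferon targets, differed in the same direction. All 11 of its genes lay above 0, 2 of them were called higher and none lower, and the median difference was 0.53. Of all genes tested, 1.93% were called higher and 1.15% lower. Scaled to the same sum without the 100 highest genes, 10 of the 11 lay above 0. Oas1a, an antiviral oligoadenylate synthetase, stood at 29.1 FPKM in Thy1.1-negative cells and 11.9 FPKM in Thy1.1-positive cells, a ratio of 2.45. Ifi27l2a, a small interferon-induced protein, stood at 571 FPKM in Thy1.1-negative cells and 266 FPKM in Thy1.1-positive cells. The differences of Lgals9 and Lgals3bp, 0.39 and 0.65, lay below the highest of this list, 1.22. Against the list median of 0.53, Lgals9 lay below and Lgals3bp above. The part of the interferon response in the galectin differences was not tested.

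Lgals8 encodes galectin-8, a tandem-repeat member known to recognise damaged endosomes and lysosomes. It stood at 38.2 FPKM (1258 reads) in Thy1.1-negative cells and 31.8 FPKM (1049 reads) in Thy1.1-positive cells. The ratio was 1.20 (1.11 to 1.31). Its annotated exons share 155 bases with Heatr1 on the opposite strand, which stood at 14.1 FPKM in Thy1.1-negative cells and 15.5 FPKM in Thy1.1-positive cells. The sources used here do not say that strand was used in counting, so reads of that stretch cannot be told apart.

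Lgals4 encodes galectin-4, a tandem-repeat member best known from the gut epithelium. It stood at 9.05 FPKM (136 reads) in Thy1.1-negative cells and 8.29 FPKM (125 reads) in Thy1.1-positive cells. This was the smallest ratio of the 6, 1.09, and its interval of 0.850 to 1.40 included 1, so at this depth a difference was not detectable. Vil1, a marker of gut epithelium, stood at 1.31 FPKM in Thy1.1-negative cells and 1.70 FPKM in Thy1.1-positive cells, and Epcam, an epithelial adhesion molecule, at 4.18 FPKM in Thy1.1-negative cells and 6.64 FPKM in Thy1.1-positive cells. The summed level of the 6 epithelial markers was 6.43 FPKM in Thy1.1-negative cells and 9.14 FPKM in Thy1.1-positive cells.

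**Figure D2:**
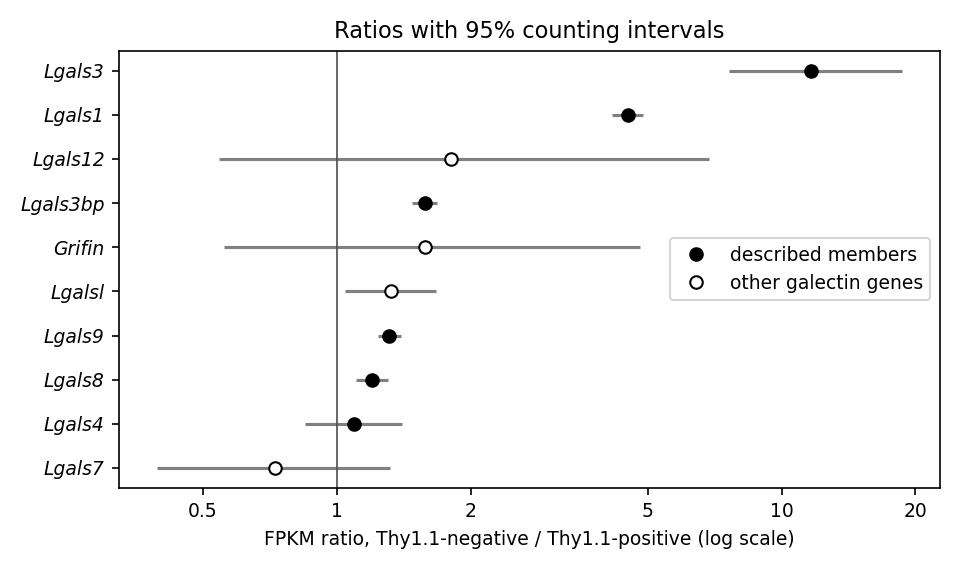
Ratio of FPKM, Thy1.1-negative over Thy1.1-positive, on a log axis, with exact 95% counting intervals as lines, filled circles for the 6 described genes and open circles for 4 further galectin genes. Lgals3 (11.6) and Lgals1 (4.51) stand apart to the right, and the intervals of Lgals4, Lgals7, Lgals12 and Grifin include 1.

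The order of the transcripts differed between the populations. In the Thy1.1-negative library it ran from Lgals1 through Lgals3bp, Lgals9, Lgals8 and Lgals3 to Lgals4, and no neighbours in that order had overlapping counting intervals. In the Thy1.1-positive library it ran from Lgals3bp through Lgals9, Lgals1, Lgals8 and Lgals4 to Lgals3, and the intervals of Lgals3bp, 82.5 to 91.2 FPKM, and Lgals9, 77.3 to 84.7 FPKM, overlapped. By deposited FPKM, Lgals1 was 2.68 times as abundant as Lgals9 in the Thy1.1-negative cells and 0.781 times as abundant in the Thy1.1-positive cells. Lgals3 and Lgals4 also changed places, with Lgals4 at 0.560 times the level of Lgals3 in Thy1.1-negative cells and 5.98 times in Thy1.1-positive cells. Levels of different genes depend on the gene length used. Computed per kilobase of all annotated exons, the top 3 places went to Lgals1, Lgals9 and Lgals3bp in Thy1.1-negative cells and to Lgals9, Lgals1 and Lgals3bp in Thy1.1-positive cells, while the lower 3 places were as before. On that scale Lgals1 stood at 202 and Lgals9 at 61.2 in Thy1.1-negative cells. In Thy1.1-positive cells Lgals1 stood at 44.8 (41.6 to 48.1) and Lgals9 at 46.6 (44.5 to 48.8), where the intervals overlapped, so a change of places between them was seen with the deposited lengths and not beyond counting error with all exons.

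The summed level of the 5 galectins was 455 FPKM in Thy1.1-negative cells and 186 FPKM in Thy1.1-positive cells, a ratio of 2.45. Lgals1 made up 82.4% of that difference of 269 FPKM, Lgals9 9.44%, Lgals3 5.49%, Lgals8 2.40% and Lgals4 0.283%. As a share of the sum, Lgals1 was 62.7% in Thy1.1-negative cells and 34.0% in Thy1.1-positive cells. Lgals9 was 23.4% of the sum in Thy1.1-negative cells and 43.6% in Thy1.1-positive cells, although its level was the higher in Thy1.1-negative cells. Lgals3, in spite of its wide ratio, was a small part of both, at 3.55% in Thy1.1-negative cells and 0.747% in Thy1.1-positive cells. Without Lgals1, the other 4 galectins summed to 170 FPKM in Thy1.1-negative cells and 122 FPKM in Thy1.1-positive cells, a ratio of 1.39.

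**Figure D3:**
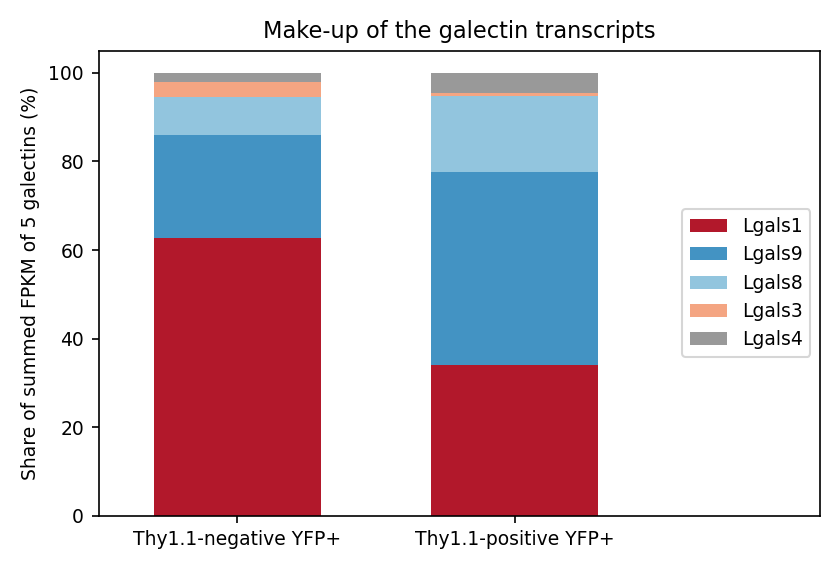
Stacked bars of each galectin's share, in percent, of the summed FPKM of Lgals1, Lgals9, Lgals8, Lgals3 and Lgals4, 1 bar for each library. The Lgals1 part fills 62.7% of the Thy1.1-negative bar and 34.0% of the Thy1.1-positive bar, and Lgals9 is the largest part of the Thy1.1-positive bar at 43.6%.

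The other galectin genes were low. Lgalsl, which encodes a galectin-related protein, stood at 7.04 FPKM in Thy1.1-negative cells and 5.33 FPKM in Thy1.1-positive cells, a ratio of 1.32 (1.05 to 1.68). Lgals7, known from stratified epithelium, stood at 2.51 FPKM (21 reads) in Thy1.1-negative cells and 3.45 FPKM (29 reads) in Thy1.1-positive cells, and its interval of 0.394 to 1.32 included 1. These are the 2 further family genes with a mean of at least 1 FPKM. Grifin, a lens protein of the family, had 11 reads in Thy1.1-negative cells and 7 reads in Thy1.1-positive cells. Lgals12, known from fat tissue, had 9 reads in Thy1.1-negative cells and 5 reads in Thy1.1-positive cells. Lgals2 had 0 reads in both libraries, which allows up to 3 reads, or 0.273 FPKM in Thy1.1-negative cells and 0.272 FPKM in Thy1.1-positive cells.

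**Figure D4:**
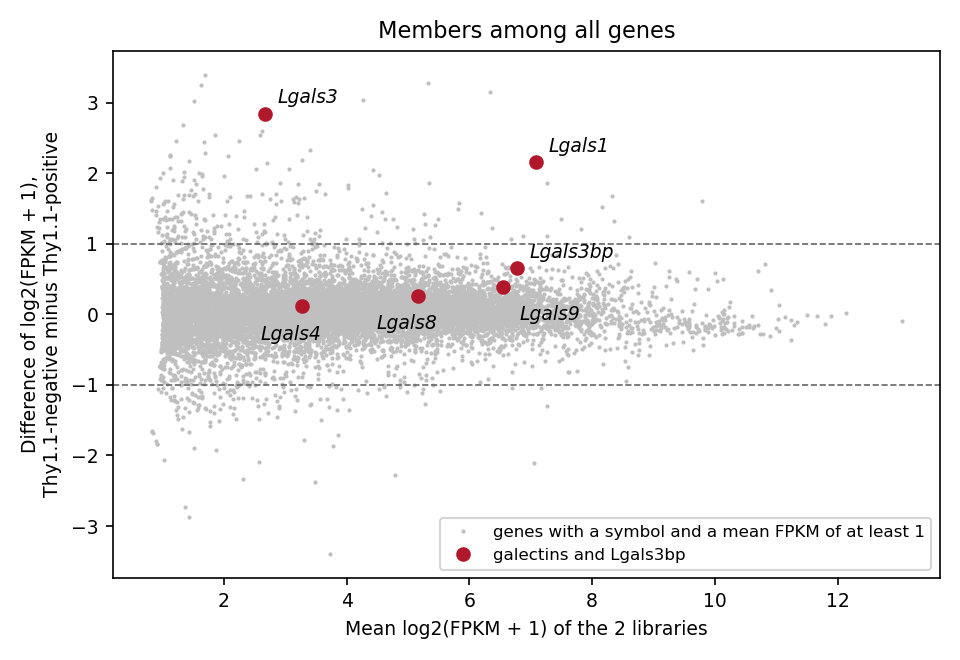
Each grey point is a gene with a symbol and a mean of at least 1 FPKM, with its mean log2(FPKM + 1) over the 2 libraries on the horizontal axis and its log2 difference, Thy1.1-negative minus Thy1.1-positive, on the vertical axis, and dashed lines at the 2-fold rule. Lgals3 (2.85) and Lgals1 (2.16) lie above the upper line, while Lgals3bp (0.65), Lgals9 (0.39), Lgals8 (0.26) and Lgals4 (0.11) lie between the lines.

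The genes whose pair of levels lay nearest to those of each leading galectin were read from 8279 protein-coding genes with a mean of at least 5 FPKM, by the Euclidean distance of log2(FPKM + 1) over the 2 libraries. Nearest to Lgals1 was S100a11, a calcium-binding protein, at 291 FPKM in Thy1.1-negative cells and 79.7 FPKM in Thy1.1-positive cells, a distance of 0.33. Crip1, a LIM-domain protein, followed at 0.78, then the costimulatory receptor Icos at 0.80, Itgb1, the β1 integrin chain, at 0.81 and the actin-binding protein Tagln2 at 0.95. Nearest to Lgals3 was Ccr2, a receptor for inflammatory chemokines, at 14.1 FPKM in Thy1.1-negative cells and 1.51 FPKM in Thy1.1-positive cells, a distance of 0.20. Mki67, the proliferation marker Ki-67, lay at 0.26, Pclaf, a partner of the replication clamp, at 0.67 and the membrane protein Emp1 at 0.76. Over only 2 libraries, a small distance says that levels are alike and no more. Cell cycle genes were mostly higher in Thy1.1-negative cells: 10 of 12 were called higher and none lower, beside 1.93% and 1.15% of all genes tested. The summed level of the 12 was 217 FPKM in Thy1.1-negative cells and 66.1 FPKM in Thy1.1-positive cells. The part of cycling cells in the galectin differences was not tested.

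Glycoproteins that galectins are known to bind on T cells were mostly within 2-fold. Of 17 measured, 11 lay above 0 and 6 below, 1 was called higher and none lower, and the median difference was 0.21. The shares called over all genes tested were 1.93% higher and 1.15% lower. Itgb1, a known partner of galectins 1 and 3, was the called gene, at 286 FPKM in Thy1.1-negative cells and 112 FPKM in Thy1.1-positive cells, a ratio of 2.56 (2.47 to 2.65). Tnfrsf9, the costimulatory receptor 4-1BB, which galectin-9 binds, had the lowest difference, at 146 FPKM in Thy1.1-negative cells and 258 FPKM in Thy1.1-positive cells. Ptprc, which encodes CD45, a partner of galectin-1, stood at 670 FPKM in Thy1.1-negative cells and 577 FPKM in Thy1.1-positive cells. Of the other partners of galectin-1 named above, Spn, which encodes CD43, had a ratio of 1.43, and Cd7 a ratio of 1.31. Havcr2, which encodes Tim-3, was low, at 3.86 FPKM in Thy1.1-negative cells and 1.68 FPKM in Thy1.1-positive cells, and its ratio of 2.30 (1.77 to 3.02) missed the rule on the log2(FPKM + 1) scale. Lag3, an inhibitory receptor that galectin-3 is known to bind, had a ratio of 1.84, and the lysosomal membrane protein Lamp2 a ratio of 1.98. Cd7, Ptprc, Spn, Lag3, Havcr2 and Lamp2 were named after their values were seen. Scaled by the upper quartile, which moved the median of all genes up by 0.23, Lag3, Havcr2 and Lamp2 also passed 2-fold and 16 of the 17 lay above 0.

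No enzyme that builds the sugars galectins bind was called with the deposited values, though the FPKM ratio of Gcnt1, given below with its interval, was above 2. Over all genes tested, 3.08% were called in either direction. Of 13 measured genes of N-glycan branching and N-acetyllactosamine synthesis, 9 lay above 0 and 4 below, with a median of 0.19. Fut8, which adds the core fucose, had the highest difference, at 16.2 FPKM in Thy1.1-negative cells and 9.65 FPKM in Thy1.1-positive cells. Mgat5, whose branch favours galectin binding and lattice formation, had the lowest, at 35.5 FPKM in Thy1.1-negative cells and 51.6 FPKM in Thy1.1-positive cells, a ratio of 0.688 (0.655 to 0.722). Its counting interval lay below 1, and its difference stayed below 0 under all 4 rescalings.

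Of 6 measured enzymes of O-glycan cores, 5 lay above 0 and 1 below, with a median of 0.17. Gcnt1, which makes the core 2 branch that galectin-1 is known to bind on CD43 and CD45, stood at 5.55 FPKM in Thy1.1-negative cells and 2.42 FPKM in Thy1.1-positive cells. Its ratio was 2.29 (1.89 to 2.79), and its log2 difference of 0.94 missed the rule, passing it at 1.14 when scaled by the upper quartile. B3gnt3, which extends core 1 chains, had the lowest difference, at 1.85 FPKM in Thy1.1-negative cells and 2.25 FPKM in Thy1.1-positive cells. Of 11 genes of sialic acid synthesis and capping, 7 lay above 0 and 4 below, with a median of 0.18. St3gal1, which caps core 1 chains, had the highest difference, at 31.9 FPKM in Thy1.1-negative cells and 20.4 FPKM in Thy1.1-positive cells. St3gal4 had the lowest, at 11.6 FPKM in Thy1.1-negative cells and 14.5 FPKM in Thy1.1-positive cells. St6gal1, whose α2,6-linked cap is known to block galectin-1, was named after its values were seen and stood at 132 FPKM in Thy1.1-negative cells and 99.8 FPKM in Thy1.1-positive cells, a ratio of 1.32 (1.27 to 1.38).

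Cytosolic partners of galectins, such as Ras proteins, the ESCRT machinery and autophagy factors, also stayed within 2-fold. Of 10 measured, 7 lay above 0 and 3 below, with a median of 0.07. That split was 5 above and 5 below when the values were centred on the median gene or scaled without the 100 highest genes, and 10 above and none below by the upper quartile. Tfeb, a regulator of lysosomal genes, had the highest difference, a ratio of 1.22. Atg16l1, an autophagy factor, had the lowest, at 54.3 FPKM in Thy1.1-negative cells and 61.5 FPKM in Thy1.1-positive cells, and its sign turned when scaled by the upper quartile.

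**Figure D5:**
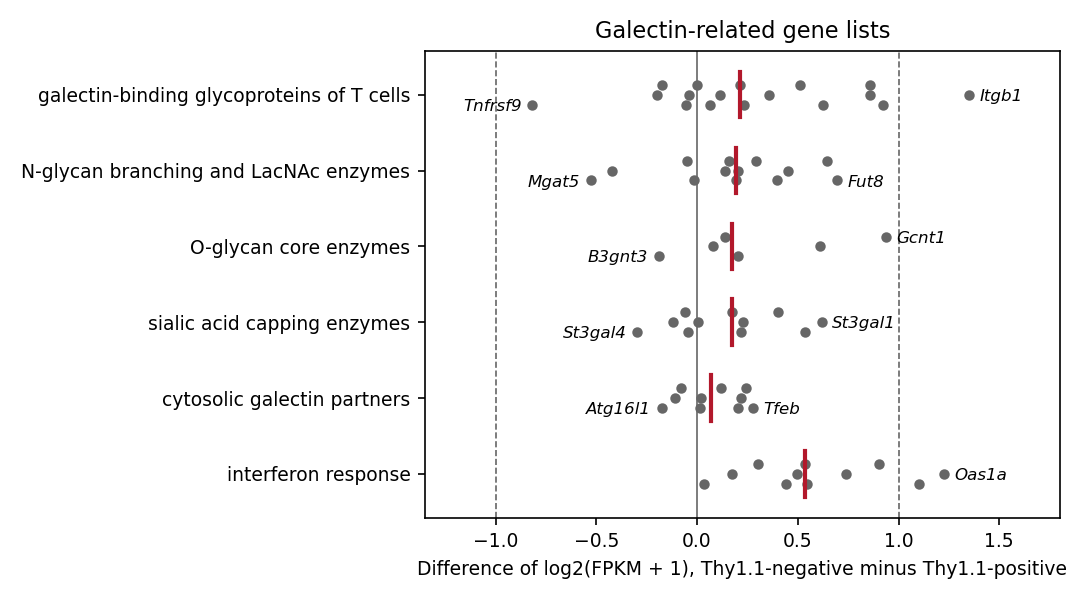
Each point is a gene with a mean of at least 1 FPKM, placed by its log2(FPKM + 1) difference, Thy1.1-negative minus Thy1.1-positive, in 6 lists, with the list median as a red bar, dashed lines at the 2-fold rule and the highest gene of each list named, with the lowest also named in all but the interferon response list. Past the upper line lie Itgb1 in the binding glycoproteins and Oas1a and Ifi27l2a in the interferon response list.

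Galectin-3 and Lgals3bp are also made by macrophages, so markers of other cells are given beside them. Of 10 myeloid markers, 3 had a mean of at least 1 FPKM and 1 of these was called higher, with a summed level of 78.9 FPKM in Thy1.1-negative cells and 61.1 FPKM in Thy1.1-positive cells, most of it Cst3. Itgam, which encodes CD11b, was that gene, at 4.17 FPKM (229 reads) in Thy1.1-negative cells and 0.272 FPKM (15 reads) in Thy1.1-positive cells. Its ratio was 15.3 (9.10 to 27.8). Lyz2, an abundant macrophage transcript, was at 0.298 FPKM in Thy1.1-negative cells and 0.212 FPKM in Thy1.1-positive cells, and Csf1r at 0.113 FPKM in both. Adgre1 had 3 reads in each library and Cd14 had 6 reads in Thy1.1-negative cells and 2 reads in Thy1.1-positive cells, while Clec7a had 1 read in Thy1.1-negative cells and 0 in Thy1.1-positive cells. Fcgr3, a receptor for antibody Fc parts, had 13 reads in Thy1.1-negative cells and 3 reads in Thy1.1-positive cells, a ratio of 4.35 (1.19 to 23.8). Cd68 stood at 8.86 FPKM in Thy1.1-negative cells and 9.11 FPKM in Thy1.1-positive cells, a ratio of 0.972 (0.775 to 1.22). Mpeg1 had 79 reads in Thy1.1-negative cells and 80 reads in Thy1.1-positive cells, a ratio of 0.991. Fcgr3, Lyz2, Csf1r, Adgre1, Cd14, Clec7a, Cd68 and Mpeg1 were named after their values were seen. Summed B cell markers were 14.5 FPKM in Thy1.1-negative cells and 9.27 FPKM in Thy1.1-positive cells, and plasma cell markers 21.02 FPKM in Thy1.1-negative cells and 11.4 FPKM in Thy1.1-positive cells. Most of the plasma cell sum was Prdm1, which activated T cells also express and which was called higher at a ratio of 2.27 (2.02 to 2.55). The other 5 plasma cell genes summed to 6.01 FPKM in Thy1.1-negative cells and 4.82 FPKM in Thy1.1-positive cells, and Jchain had 18 reads in Thy1.1-negative cells and 32 reads in Thy1.1-positive cells. Dendritic cell markers summed to 3.44 FPKM in Thy1.1-negative cells and 3.32 FPKM in Thy1.1-positive cells, and natural killer cell markers to 6.58 FPKM in Thy1.1-negative cells and 4.43 FPKM in Thy1.1-positive cells. Within the natural killer list the genes differed in direction. Klrb1c, which encodes the receptor NK1.1, was called higher, with 56 reads in Thy1.1-negative cells and 12 reads in Thy1.1-positive cells, a ratio of 4.68 (2.48 to 9.60). The granule protease Gzma had a ratio of 3.79 and the transcription factor Eomes a ratio of 0.743, while Ncr1, which encodes NKp46, had 0 reads in Thy1.1-negative cells and 6 reads in Thy1.1-positive cells. Gzma, Ncr1 and Jchain were named after their values were seen. In sorted populations measured in bulk, fewer cells with a transcript and less transcript per cell cannot be told apart. The part of other cell types in the galectin differences was not tested.

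Treg markers were mostly lower in the Thy1.1-negative cells. Of 7 markers, 6 lay below 0, 2 were called lower and none higher, and the median difference was -0.37, while 1.15% of all genes tested were called lower. Il2ra, the high-affinity chain of the interleukin-2 receptor, stood at 98.8 FPKM in Thy1.1-negative cells and 205 FPKM in Thy1.1-positive cells, a ratio of 0.482 (0.466 to 0.499). Ikzf4, the transcription factor Eos, stood at 70.9 FPKM in Thy1.1-negative cells and 148 FPKM in Thy1.1-positive cells, a ratio of 0.479 (0.457 to 0.503). Scaled by the upper quartile neither was called, at -0.79 for Il2ra and -0.80 for Ikzf4, and 4 of the 7 lay below 0. Ctla4, an inhibitory receptor, was the gene above 0, at 1156 FPKM in Thy1.1-negative cells and 1105 FPKM in Thy1.1-positive cells, and had the highest level of the list. The other 6 summed to 799 FPKM in Thy1.1-negative cells and 1122 FPKM in Thy1.1-positive cells. The part of Treg content in the galectin differences was not tested.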

How the data were processed

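Total RNA of sorted cells, 3 µg a library, was made into libraries with a NEBNext Ultra kit and sequenced, per the labels' protocols. FPKM values by Ensembl gene were deposited by the authors, with a column for each population. Column names were matched to sample titles by their N (Thy1.1-negative) and P (Thy1.1-positive). Per the submitters' processing notes, the tools were Bowtie2 2.2.3, TopHat2 2.0.12, HTSeq 0.6.1 and the build mm9. Settings, gene models and filters are not given there. A symbol was found for 40254 of 41592 IDs (GENCODE M21 names). That annotation is on another build, so its lengths were used and positions are given only for RefSeq promoter sequences on GRCm38.p6.

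Whole reads were recovered because all 23442 genes with reads in both libraries had FPKM ratios equal to whole-number ratios times 1.003, to within a relative tolerance of 4e-12. Library totals were those shared by 4016 of 6823 genes with 1 annotated transcript. Each gene's reads were the multiple that brought its implied length nearest to the mean annotated transcript length, within 1 base for 55.5% of tested genes. The steps were run on simulated data in which each gene's length was its mean annotated length. That simulation does not test the choice of multiple where lengths differ. They differed for Lgals1 (implied 640, annotated 714 bases), Lgals3 (implied 892, annotated 835.5 bases) and Lgals4 (implied 811, annotated 880 bases). Clopper-Pearson intervals of ratios and exact Poisson intervals of levels cover counting error only (scipy 1.17.1, Python 3.11.15). No count model was used, since 1 library per population has no replicate error.

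The members, lists and motifs were chosen with earlier results of these data known. Genes named were all members and family genes, the called, highest and lowest genes of galectin-related lists, the 5 genes nearest to Lgals1 and to Lgals3, and the exceptions stated in the text; genes of cell type and cell cycle lists are given mainly as counts or sums, and a few genes falling under this rule are left unreported. Of 19 lists, those for Treg, pan T, CD8, erythroid and stromal cells served as checks. In Thy1.1-negative cells these summed to 1955 FPKM for Treg, 3496 FPKM for pan T, 4.78 FPKM for CD8, 2.27 FPKM for erythroid and 87.7 FPKM for stromal markers. In Thy1.1-positive cells the sums were 2226 FPKM for Treg, 2723 FPKM for pan T, 4.49 FPKM for CD8, 5.99 FPKM for erythroid and 64.7 FPKM for stromal markers. Most of the stromal sum was Pecam1, at 84.8 FPKM in Thy1.1-negative cells and 63.5 FPKM in Thy1.1-positive cells. Alternatives were constants of 0.1 and 5, other filters, 4 rescalings and other fold rules.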

Additional observations from a re-analysis of the deposited data

How the results depend on the processing

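The 2 members called, Lgals1 and Lgals3, passed the size rule under every alternative tried. These were constants of 0.1 and 5, no filter or a mean of at least 5 FPKM, 4 rescalings, and fold rules of 1.5 and 4. The constant of 0.1, the lack of a filter and the 1.5-fold rule could not undo a call already made, so passing there says nothing of stability. Lgals3bp also passed at 1.5-fold, and Lgals4, Lgals8 and Lgals9 passed under none. No member changed sign. Of 61 alternative values for single members, 56 stayed within the counting interval and 5 moved, where the interval is that of the ratio carried onto the log2(FPKM + 1) scale with the Thy1.1-positive level held fixed (2.27 to 3.50 for Lgals3): Lgals3 to 1.73 with a constant of 5, and, scaled by the upper quartile, Lgals1 to 2.41, Lgals8 to 0.51, Lgals9 to 0.64 and Lgals3bp to 0.91, where the median over the 6 members was 0.78 in place of 0.52 and the median gene moved by 0.23. The 56 include the values under other filters, other fold rules and the multiple of 5 for Lgals1. Those settings leave a member's difference unchanged by construction, so these values could not move and say nothing of stability. Counting all genes, 247 were called higher and 148 lower. These were 402 and 293 with a constant of 0.1, 72 and 19 with a constant of 5, 107 and 60 at a mean of at least 5 FPKM, 409 and 80 by the upper quartile, 745 and 493 at 1.5-fold, and 31 and 9 at 4-fold. Of 160 list genes with a row, 19 were called, and 10 of these were in the cell cycle list. Many of the 160 lay below a mean of 1 FPKM and could not be called. Of all genes tested, 3.08% were called in either direction. The 19 became 12 with a constant of 5, 11 at a mean of at least 5 FPKM, 35 at 1.5-fold and 8 at 4-fold. Chosen after seeing the data, the length of all annotated exons gave Lgals1 shares of 69.0% and 40.6% of the 5 galectins, in the Thy1.1-negative and in Thy1.1-positive cells, in place of 62.7% and 34.0%. These all-exon shares used the multiple of 4 for Lgals1, and a multiple of 5 would raise both. Depth limits Lgals3 in Thy1.1-positive cells, at 23 reads, and Lgals4, Lgals7, Lgals12 and Grifin in both. No paired analysis was possible because each population is 1 library, and for the same reason no library could be left out.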
